A study of Oryctolagus cuniculus with 12 samples.

Results

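The uterine RNA of these rabbits held 1780 loci that carried no Ensembl gene identifier. They were assembled by the authors from spliced reads and numbered with the prefix Rabbit_newGene. All identifiers with that prefix in the 12 FPKM tables were taken, 1780 of 17301 identifiers in all, and all 1780 had a position and exons in the deposited table of assembled transcripts. FPKM is a read level scaled to transcript length and to library size. The other 15521 identifiers were Ensembl genes.

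The libraries came from New Zealand White rabbits, tissue uterine body, 1 library per animal and 3 animals in each of 4 groups. All animals had estrus and ovulation synchronised with the gonadotrophins eCG and hCG, and their ages are not given in the labels. Control animals received saline and no active agent. LPS animals received 4 mg/kg of lipopolysaccharide (serotype O55:B5), an endotoxin of the bacterial outer membrane that triggers innate immunity. CsA animals received saline and cyclosporine A at 20 mg/kg by intramuscular injection, a drug that blocks calcineurin and with it T cell activation. LPS+CsA animals received both agents. Treatment lasted 3 h before sampling. The labels disagree on whether the infusion was into the uterus or the vagina, on the vehicle of the injection and on its timing. P-values of group comparisons below measure differences between groups against the spread between animals. Tests that set classes of loci or genes against each other within libraries differ. Their p-values measure only how steadily the 12 libraries give the same order, for a fixed set of loci.

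A transcript assembler joins reads that span splice junctions into chains of exons, and it reports loci where the reference annotation has no gene. Such loci can be genes or exons missing from a draft annotation, long non-coding RNAs, antisense transcripts, pseudogenes or copies of mobile elements. In a genome with many unplaced scaffolds, a gene can also be split over several of them. An assembled locus is therefore a unit of transcription seen in the reads, and only protein matches that the authors deposited are used below to name what it resembles.

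The tissue label could not be checked with smooth muscle or endometrial markers, because 0 of 3 and 0 of 7 of them had a symbol in the deposited tables. The 3 neutrophil markers S100A8, S100A9 and S100A12 summed to 8.68 to 276.5 FPKM in Control and 60.2 to 73.3 in LPS, within the Control range. Their sums were 16.7 to 399 FPKM in CsA and 14.0 to 527 in LPS+CsA. Control 3, CsA 3 and LPS+CsA 3 were the highest of their groups. The 3 of 4 markers of multiciliated epithelium that had a symbol summed to 0.0486 to 1.90 FPKM in Control, 2.10 to 46.7 in LPS, 0.319 to 4.09 in CsA and 4.62 to 8.69 in LPS+CsA. In LPS the highest was LPS 2, and FOXJ1 was listed at 0 in Control 2. The 2 of 3 red cell markers that had a symbol summed to 211 to 380 FPKM in Control, 110 to 128 in LPS, 140 to 202 in CsA and 120 to 339 in LPS+CsA. The 3 plasma cell markers JCHAIN, MZB1 and DERL3 summed to 37.3 to 132 FPKM in Control, 16.4 to 26.5 in LPS, 15.4 to 44.8 in CsA and 69.0 to 122 in LPS+CsA. The 1 of 3 T cell markers that had a symbol, TRAC, read 2.54 to 4.06 FPKM in Control, 0.655 to 1.13 in LPS, 2.00 to 3.99 in CsA and 2.29 to 5.99 in LPS+CsA. Its LPS animals lie below the other 9. Red cell and plasma cell sums were thus lower in LPS than in Control without overlap, and the multiciliated sum was higher. The latter separation was narrow, at 2.10 FPKM in LPS 1 against 1.90 in Control 1. Not every marker followed its sum. FOXJ1 read 0.538 FPKM in LPS 1 and 0.878 in Control 1, and CDC20B 0.382 in LPS 1 and 0.838 in Control 3. DERL3 overlapped too, at 0.719 to 3.25 FPKM in LPS and 2.04 to 8.29 in Control. HBB2, ALAS2, JCHAIN, MZB1 and C20orf85 did not overlap between LPS and Control. In tissue RNA, fewer cells of a type and less RNA per cell cannot be told apart. The depth of the libraries is unknown, since the count columns cover listed genes of 9 libraries only.

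Every assembled locus kept in the tables had 2 or more exons. The number of exons, taken as the most in any transcript of the locus, was 2 in 872 loci (49.0%) and 3 in 375, and 48 loci had 10 or more. The numbers of the loci run up to 7936, and whether loci of 1 exon were dropped before deposit is not stated. The loci comprised 3775 transcripts, and 1032 loci had a single one. The summed exon length of a locus, from its longest transcript, had a median of 1467 bases and ran from 178 to 25503. The span on the genome had a median of 6702 bases and reached 530925.

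Rabbit_newGene_5837 had the most exons, 30 of them in 2048 exon bases at GL018765:653786-681394 on the minus strand. Rabbit_newGene_5014 followed with 24 exons at GL018699:171263-202328, and Rabbit_newGene_2195 with 23 at chr17:81197297-81292981. Length and exon number were not the same ranking. The longest exon sums belonged to loci with 2 exons, namely Rabbit_newGene_6352 (25503 bases), Rabbit_newGene_6354 (23724) and Rabbit_newGene_1510 (22980). The former pair shares exon bases on opposite strands of scaffold GL018841. The longest spans were those of Rabbit_newGene_1112 (530925 bases, 5 exons, chr13:88940883-89471807), Rabbit_newGene_1044 on the same chromosome (chr13:9186258-9673679) and Rabbit_newGene_3480 (chr4:23324785-23791136).

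The loci lay in nearly equal numbers on both strands, 893 on the plus and 887 on the minus strand. Chromosomes held 974 of them (54.7%) and 459 unplaced scaffolds held the other 806. Chromosomes 1 and 13 had 88 loci each, the most, and chromosome 21 had 3. Exon bases were shared with a locus on the opposite strand in 183 loci and with one on the same strand in 0. Whether the libraries kept the strand of the RNA is not stated, so reads from such opposite-strand pairs cannot be told apart. Coordinates are those of the deposited table, and the sources used here do not give their genome build.

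**Figure D1:**
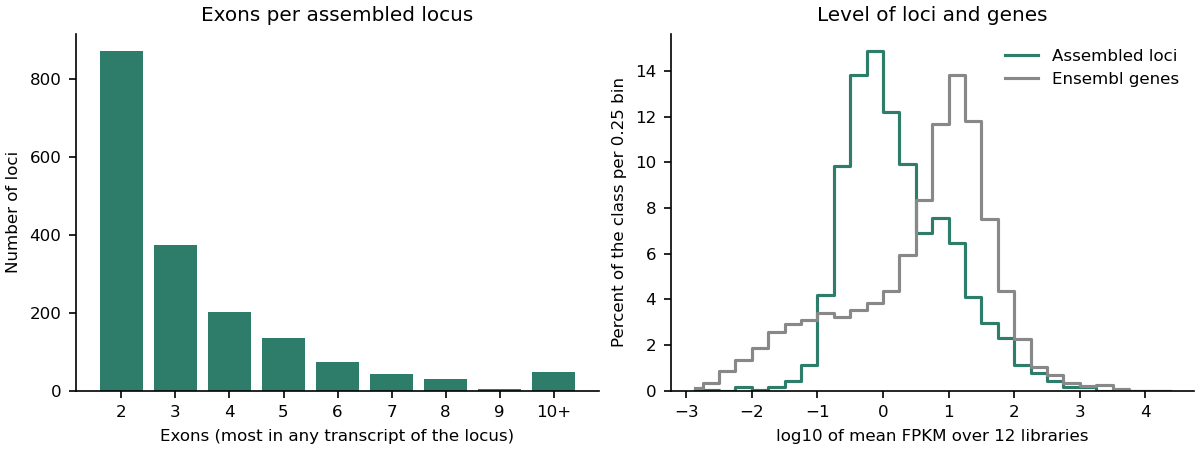
Left, number of assembled loci (y axis) by exon number (x axis), the last bar holding 10 or more exons. Right, percent of the 1780 assembled loci and of the 15521 Ensembl genes (y axis) by log10 of the mean FPKM over 12 libraries (x axis); the loci peak just under 1 FPKM and the genes near 10.

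The assembled loci were read at lower levels than the annotated genes. The median over loci of the mean FPKM was 1.27, against 7.11 for Ensembl genes. Of the loci, 761 had a mean of 0.1 to 1 FPKM, 652 of 1 to 10, 282 of 10 to 100 and 48 of 100 or more. In each library, 52.1% to 56.7% of the loci reached 1 FPKM, compared with 71.0% to 73.4% of Ensembl genes. The share of loci was lower by 17.8 ± 1.09 percentage points (SD over libraries), and lower in 12 of 12 libraries (exact sign-flip permutation test, two-sided, p = 4.88e-04, the smallest 12 libraries can give). At a threshold of 0.1 FPKM the order turned, the loci having 3.07 percentage points more. The distribution of levels shows the same, with few loci in the lowest bins. The loci exist because reads were assembled there, which does not hold for Ensembl genes.

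Level also differed with exon number. Loci with 2 exons had a median of the mean FPKM of 0.734, those with 3 exons 1.53, those with 4 exons 1.68 and those with 5 or more 4.47. Within libraries, the median of loci with 3 or more exons was 2.05 to 2.48 FPKM and that of loci with 2 exons 0.604 to 0.778. The former was higher in 12 of 12 libraries, by 1.58 ± 0.105 FPKM (SD; exact permutation test, two-sided, p = 4.88e-04, the smallest 12 libraries can give). Among loci with at least 500 exon bases the difference was 1.51 FPKM, again in 12 of 12. A junction must hold reads to be assembled, and the part of assembly in this difference was not tested.

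The loci held 3.79% to 4.67% of the summed FPKM of a library. The group means were 4.05% ± 0.218 in Control, 4.14% ± 0.0543 in LPS, 3.88% ± 0.0614 in CsA and 4.21% ± 0.433 in LPS+CsA (SD, n = 3). The differences between groups were within the spread between animals (exact permutation tests, two-sided, p from 0.40 to 0.80, adjusted p = 0.80 over 4 comparisons, where 3 against 3 animals cannot go below 0.10).

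A few loci were among the abundant transcripts. Rabbit_newGene_83 (chr1:141175781-141179746, 3 exons, 739 exon bases) had the highest mean, 1595 FPKM. Its values were 823, 1914 and 1501 FPKM in Control, 1488, 1938 and 1859 in LPS, 1911, 677 and 2356 in CsA, and 2206, 1120 and 1341 in LPS+CsA. All groups overlap. Rabbit_newGene_3466 (chr4:39676028-39677871, 4 exons) was steadier, at 831 to 1409 FPKM over the 12 libraries. Rabbit_newGene_6478 (GL018864:73581-85889, minus strand) lay at 731 to 1042 FPKM. The 30-exon locus Rabbit_newGene_5837 was also in this group, with a mean of 536 FPKM. The 8 highest were completed by Rabbit_newGene_3881 (mean 845 FPKM), Rabbit_newGene_1130 (560), Rabbit_newGene_1767 (1147) and Rabbit_newGene_1748 (727).

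The spread between animals of a group was larger for loci than for annotated genes of the same level. At a mean of 5 to 20 FPKM, the median SD within groups was 0.32 on the log2(FPKM + 1) scale for 302 loci and 0.20 for 4689 Ensembl genes. At 20 to 100 FPKM it was 0.27 for 141 loci and 0.20 for 3267 genes. At 100 FPKM or more it was 0.39 for 48 loci and 0.24 for 763 genes. These medians are given as a description, with no test.

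**Figure D2:**
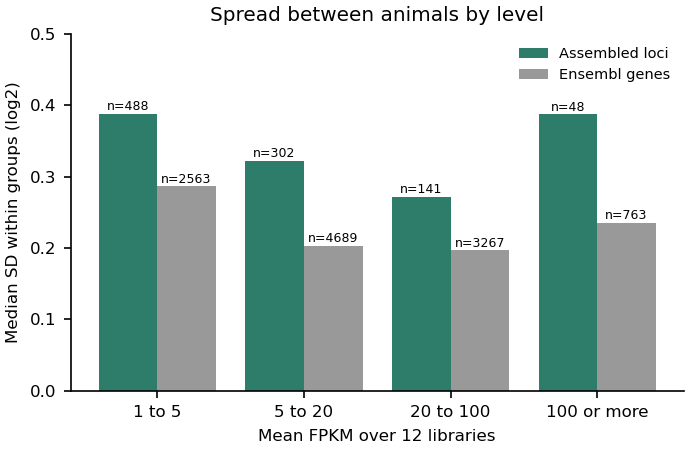
Median SD within groups of log2(FPKM + 1) (y axis) for assembled loci and Ensembl genes in bands of mean FPKM (x axis), with the number of features above each bar. The bar of the loci is the taller one in each of the 4 bands, 0.39 against 0.29 at 1 to 5 FPKM and 0.39 against 0.24 at 100 FPKM or more.

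The comparison of LPS with Control asks which loci respond to bacterial endotoxin in the uterus. Of the 1780 loci, 1151 reached 1 FPKM in 3 or more of the 12 libraries and were tested. None of them was at 1 FPKM in libraries of 1 group only. Some reached 3 libraries only with the help of 1 group, and these were not counted. Rabbit_newGene_3004, for one, reached 1 FPKM outside LPS only in CsA 1 (1.32) and LPS+CsA 3 (1.18). Rabbit_newGene_1467 reached it outside Control only in LPS 2 (2.39) and LPS+CsA 1 (1.15). No locus passed an adjusted p of 0.05 over the 12794 features tested with limma (percent called over all features 0), the smallest adjusted p of a locus being 0.750. An unadjusted p under 0.05 was reached by 85 loci (7.38%), against 6.56% of all features. Of these, 54 were higher in LPS and 31 lower (4.69% and 2.69% of the loci, with 4.10% and 2.45% of all features). The 3 animals of both groups did not overlap in 134 loci (11.6%), against 13.7% of all features. The median log2 difference over the loci tested was 0.02, and 0.02 over all features. A 2-fold difference was seen in 60 of the 1151 loci (5.21%), against 1.84% of all features, beside the larger spread of the loci.

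Loci that match protein-arginine deiminase type-1 stood out by level in the LPS animals. This enzyme converts arginine in proteins to citrulline. There were 3 of them, on scaffold GL018915, and all carried this match in the authors' annotation. Rabbit_newGene_6664 (GL018915:9891-16101, plus strand, 4 exons) read 0.355, 3.30 and 2.12 FPKM in Control, 13.4, 7.48 and 6.03 in LPS, 3.42, 0.583 and 3.11 in CsA, and 0.393, 3.41 and 0.866 in LPS+CsA. The LPS animals lie above the other 9. Its log2 difference was 1.86 ± 0.56 (SE) against Control and -2.08 ± 0.56 in LPS+CsA against LPS (limma adjusted p = 0.750 and 0.587).

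Rabbit_newGene_6663 (GL018915:311-4071, plus strand, 3 exons) read 0.0647, 2.28 and 0.935 FPKM in Control, 7.04, 4.42 and 7.44 in LPS, 1.85, 0.467 and 1.18 in CsA, and 0.375, 2.88 and 1.18 in LPS+CsA. Again the LPS animals lie above all others. The log2 differences were 1.92 ± 0.46 (SE) for LPS against Control and -1.66 ± 0.46 for LPS+CsA against LPS (limma adjusted p = 0.750 and 0.587).

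Rabbit_newGene_6665 (GL018915:10899-16101, minus strand, 2 exons) shares exon bases with Rabbit_newGene_6664. It read 0.785 to 2.17 FPKM in LPS and at most 0.431 in the other 9 libraries, and was too low to be tested. The T cell marker given above also sets LPS apart from the other 9 libraries, with LPS lower. The red cell and plasma cell sums separate LPS from Control, with LPS lower, and the multiciliated sum does so narrowly, with LPS higher. Their part in the values of these loci was not tested. As the 3 loci lie on 1 scaffold and match 1 protein, they are not independent observations.

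Rabbit_newGene_3004 (chr20:11251274-11317924, plus strand, 2 exons) was also highest in the LPS animals. It read 0.886, near 0 and 0.729 FPKM in Control, 6.09, 2.48 and 5.29 in LPS, 1.32, 0.715 and near 0 in CsA, and near 0, near 0 and 1.18 in LPS+CsA. The LPS animals again lie above the other 9, opposite to the T cell marker, whose part was not tested. The locus passed the filter only with its LPS animals, so it was in part selected for being high there. The log2 difference was 1.86 ± 0.43 (SE) against Control and -2.05 ± 0.43 for LPS+CsA against LPS (limma adjusted p = 0.750 and 0.585).

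The other loci with the smallest p among those higher in LPS were Rabbit_newGene_4378, Rabbit_newGene_4162, Rabbit_newGene_5044, Rabbit_newGene_6503 and Rabbit_newGene_7239. Rabbit_newGene_4162 (chr8:35579297-35583313) matches the L-type calcium channel subunit alpha-1C, the pore of the channel that admits calcium during contraction of smooth muscle. It read 6.02, 6.59 and 9.85 FPKM in Control and 23.0, 24.7 and 14.5 in LPS, with no overlap, and a log2 difference of 1.35 ± 0.39 (SE). In LPS+CsA it read 19.8, 14.3 and 15.7 FPKM, and so overlapped with LPS. An opposite-strand locus, Rabbit_newGene_4181, shares exon bases with it. Rabbit_newGene_5044 (GL018700:13396793-13443664, 7 exons) read 10.8, 12.6 and 12.7 FPKM in Control, 20.0, 16.1 and 15.9 in LPS, and 13.2, 11.1 and 10.8 with both agents. LPS lies above both other groups.

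Among loci lower in LPS, Rabbit_newGene_6876 (GL018974:160617-171307, minus strand, 3 exons) had the smallest p of any locus, 3.17e-04 before adjustment. It read 1.48, 2.37 and 2.23 FPKM in Control, 0.507, 0.370 and 0.215 in LPS, 1.73, 1.83 and 1.38 in CsA, and 1.13, 1.83 and 0.671 in LPS+CsA. The LPS animals lie below the other 9, as they do for the T cell marker TRAC, and the red cell and plasma cell sums are lower in LPS than in Control as well. Their part in this value was not tested. The log2 difference was -1.14 ± 0.22 (SE) against Control (limma adjusted p = 0.750).

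Rabbit_newGene_3891 (chr7:58972167-59120251, minus strand, 2 exons, 6129 exon bases) matches the Pol endonuclease of rodent mobile elements. It read 3.76, 6.09 and 5.56 FPKM in Control, 1.79, 1.83 and 1.15 in LPS, 2.41, 1.65 and 3.00 in CsA, and 0.691, 3.89 and 3.70 in LPS+CsA. Control and LPS do not overlap, and LPS+CsA spans the LPS range. Reads of such repeated sequence can come from other copies in the genome, so the value is uncertain as to place. The log2 difference for LPS against Control was -1.24 ± 0.36 (SE; limma adjusted p = 0.750).

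The rest of the 8 lowest were Rabbit_newGene_7390, Rabbit_newGene_1491, Rabbit_newGene_3170, Rabbit_newGene_1119, Rabbit_newGene_3465 and Rabbit_newGene_3169. Rabbit_newGene_3170 (chr3:115530625-115545019) matches cytochrome c oxidase subunit 6C, a small subunit of the terminal enzyme of the respiratory chain. It read 3.10, 2.81 and 3.31 FPKM in Control and 1.96, 1.31 and 1.32 in LPS, with no overlap. Rabbit_newGene_7390 (GL019205:441-3322) was the most abundant of them, at 29.3 to 35.1 FPKM in Control and 20.9 to 27.5 in LPS.

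**Figure D3:**
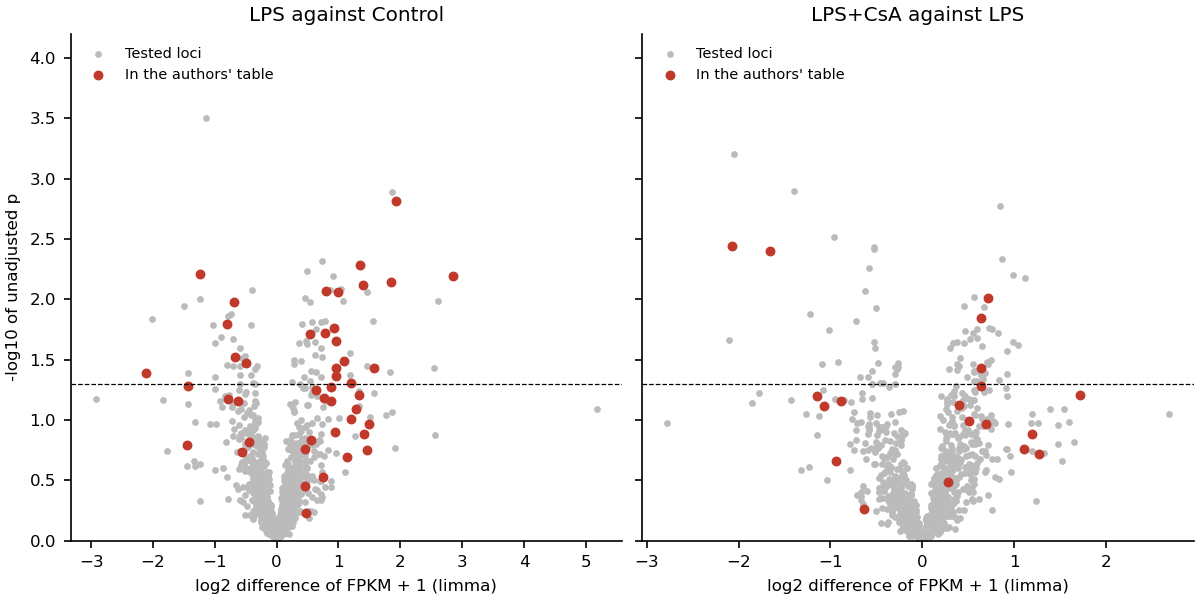
Each point is 1 of the 1151 tested loci, with the log2 difference of FPKM + 1 (x axis) and -log10 of the unadjusted limma p (y axis), for LPS against Control (left) and LPS+CsA against LPS (right). The dashed line is p = 0.05, passed by 85 and 76 loci; larger red points are the tested loci that the authors listed, 45 on the left and 19 on the right.

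The comparison of LPS+CsA with LPS asks what cyclosporine changes in tissue that received endotoxin. No locus passed the adjusted threshold in limma (percent called over all features 0), and the smallest adjusted p of a locus was 0.585. An unadjusted p under 0.05 was reached by 76 loci (6.60%), against 8.06% of all features, 46 of them higher in LPS+CsA (4.00%, with 4.85% of all features) and 30 lower (2.61%, with 3.21%). Groups did not overlap in 131 loci (11.4%), against 15.7% of all features. The comparison shares its LPS libraries with the one before, so a locus high in LPS appears in both with opposite signs.

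Of the 8 loci with the smallest p among those lower in LPS+CsA, Rabbit_newGene_3004, Rabbit_newGene_6663, Rabbit_newGene_6664 and Rabbit_newGene_5044 were described above. Rabbit_newGene_7142 (GL019067:43897-70597, 6 exons) read 1.68, 3.20 and 1.40 FPKM in LPS, 0.476, 0 and 1.11 in Control, and 0, 0.229 and 0.214 in LPS+CsA. LPS lies above both. Rabbit_newGene_60 (chr1:40483048-40508925, 5 exons) read 1.94, 2.51 and 1.44 FPKM in LPS and 0.862, 0.488 and 0.219 in LPS+CsA. Its Control values of 0.753, 1.74 and 0.855 overlap with both groups. Rabbit_newGene_2560 (chr19:8738197-8739221) was the most abundant, at 121 to 136 FPKM in LPS and 72.9 to 95.3 in LPS+CsA. Rabbit_newGene_2182 read 8.53 to 10.3 FPKM in LPS and 6.09 to 6.21 in LPS+CsA.

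Higher in LPS+CsA by the smallest p were Rabbit_newGene_6794, Rabbit_newGene_7587, Rabbit_newGene_6603, Rabbit_newGene_791, Rabbit_newGene_6174, Rabbit_newGene_7265, Rabbit_newGene_5615 and Rabbit_newGene_6876. Rabbit_newGene_6794 (GL018953:116-20266, 5 exons) read 3.48, 3.78 and 2.41 FPKM in LPS, 6.29, 5.89 and 7.41 in LPS+CsA, and 4.63, 5.68 and 4.59 in Control. LPS lies below both. Its log2 difference was 0.84 ± 0.20 (SE; limma adjusted p = 0.587). Rabbit_newGene_7265 (GL019122:69001-72209) matches a tigger transposable element-derived protein, a relic of a DNA transposon. It read 2.41, 2.24 and 2.96 FPKM in LPS+CsA, and 0.972, 1.55 and 0.958 in LPS, with no overlap. Rabbit_newGene_5615 was the most abundant, at 154 to 173 FPKM in LPS and 195 to 259 in LPS+CsA.

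**Figure D4:**
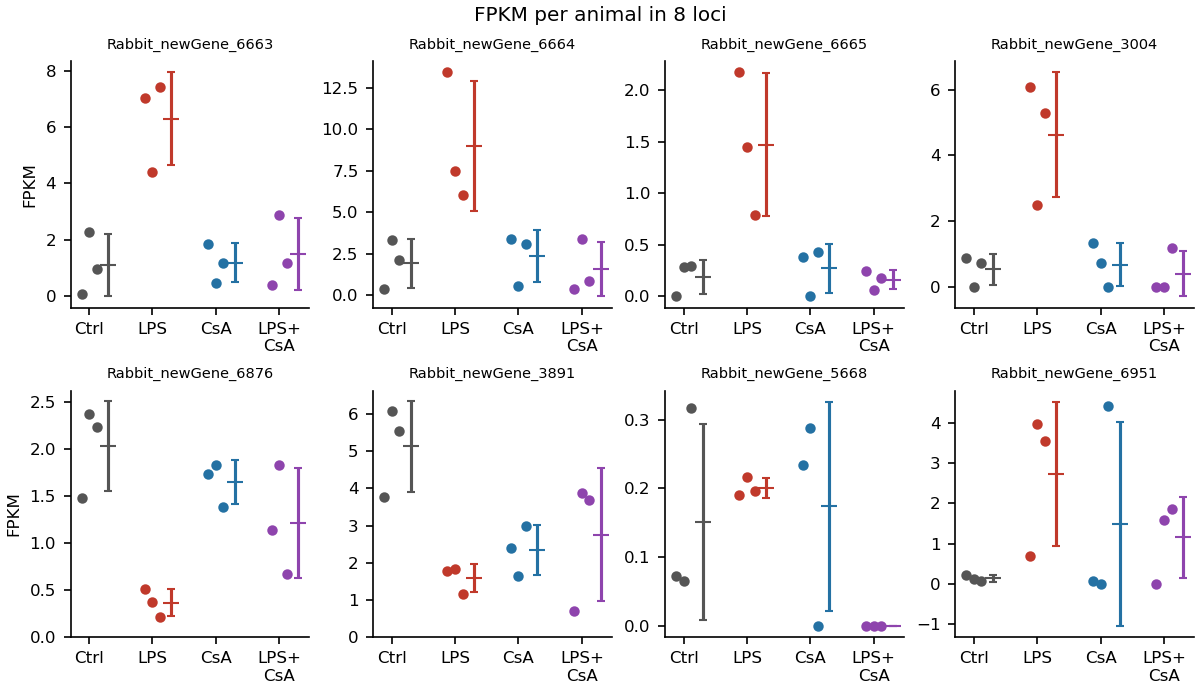
FPKM (y axis, linear and scaled per panel) of 8 loci in each animal (points) by group (x axis), with the group mean and SD (n = 3) as a dash with a bar beside the points. In Rabbit_newGene_6663, Rabbit_newGene_6664, Rabbit_newGene_6665 and Rabbit_newGene_3004 the 3 LPS animals are the highest of 12, in Rabbit_newGene_6876 they are the lowest, and Rabbit_newGene_5668 is at 0 in the 3 LPS+CsA animals.

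CsA was also compared with Control, and LPS+CsA with CsA. For CsA against Control no locus passed in limma (percent called over all features 0), and 52 loci (4.52%) had an unadjusted p under 0.05, against 4.64% of all features. Groups did not overlap in 101 loci (8.77%), against 9.43% of all features. The 3 smallest p among higher loci belonged to Rabbit_newGene_2175, Rabbit_newGene_7323 and Rabbit_newGene_5266, and among lower loci to Rabbit_newGene_1119, Rabbit_newGene_1467 and Rabbit_newGene_7539. For LPS+CsA against CsA no locus passed either (percent called 0), and 70 (6.08%) had an unadjusted p under 0.05, against 6.97% of all features. Groups did not overlap in 110 loci (9.56%), against 12.6% of all features. Here Rabbit_newGene_6929, Rabbit_newGene_1939 and Rabbit_newGene_1768 led the higher loci and Rabbit_newGene_2175, Rabbit_newGene_2541 and Rabbit_newGene_3459 the lower ones.

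Rabbit_newGene_2175 (chr17:5018600-5022232, minus strand, 2 exons) appeared in both comparisons and in the interaction. It read 1.03, 1.84 and 2.18 FPKM in Control, 1.79, 2.46 and 3.31 in LPS, 3.74, 4.82 and 3.40 in CsA, and 2.02, 1.50 and 1.50 in LPS+CsA. CsA animals lie above the other 9. The log2 difference was 0.91 ± 0.22 (SE) for CsA against Control and -0.90 ± 0.22 for LPS+CsA against CsA, 2 values that share the CsA libraries. The interaction, the effect of LPS with CsA minus that without it, was -1.29 ± 0.31 (limma adjusted p = 0.914).

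Rabbit_newGene_6929 (GL019004:258686-267639, 6 exons) read 81.3, 39.4 and 57.2 FPKM in CsA and 210, 138 and 110 in LPS+CsA, with no overlap between these groups, and 65.3 to 113 in Control. Over all loci the interaction called 0 in limma (percent called over all features 0). An unadjusted p under 0.05 was reached by 52 loci (4.52%), against 3.06% of all features. The loci with the smallest p in this test were Rabbit_newGene_2175, Rabbit_newGene_3004 and Rabbit_newGene_769 below 0 and Rabbit_newGene_1491, Rabbit_newGene_3465 and Rabbit_newGene_791 above it.

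Each locus in the authors' deposited tables of 2 comparisons has a fold change over 2, and the tables give unadjusted p-values. In LPS against Control, the authors' deposited table lists 50 loci, 35 higher in LPS and 15 lower. That is 2.81% of the loci, with 1.64% of all 17301 identifiers listed, 0.925% as higher and 0.711% as lower. In LPS+CsA against LPS, the authors' deposited table lists 29 loci, 19 higher and 10 lower, 1.63% of the loci with 1.35% of all identifiers listed, 0.907% as higher and 0.445% as lower. In all 66 different loci are listed, 41 of them on unplaced scaffolds, and 33 carry a protein match. Of the 13 in both tables, 13 have opposite signs, and the LPS libraries are shared. From the authors' p-values an upper bound of the adjusted p over 17301 identifiers was computed here, and it was under 0.05 for 8 loci (0.449%, with 0.243% of all identifiers) in the first comparison and for 3 (0.169%, with 0.150%) in the second.

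By protein match, 5 of the 66 resemble transposable elements or retroviruses, 3 match protein-arginine deiminase type-1, 3 cytochrome c oxidase proteins, 2 the kinase LMTK3 and 2 a proline-rich protein. These groups were formed after the annotations had been seen. Matches were read for listed loci only, so no share over the other loci is given. The 2 proline-rich loci, Rabbit_newGene_7240 and Rabbit_newGene_7245, share exon bases on opposite strands and are not separate observations. Of the 45 listed loci of the first table that were tested here, 22 had an unadjusted limma p under 0.05 (48.9%), against 45.0% of the 249 features listed and tested. Of the 19 tested from the second, 5 had one (26.3%), against 47.2% of 199 features. Both tests use the same libraries, so this is no independent check.

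Rabbit_newGene_5668 (GL018749:61805-78196, plus strand, 2 exons, 12561 exon bases) had the smallest p of a locus in the authors' deposited table of LPS+CsA against LPS, 1.84e-13, with a log2 fold change of -8.50. Its deposited counts were 44, 48 and 44 in LPS, whereas the 3 LPS+CsA libraries had 0. Against a floor of 3 counts over the group, LPS+CsA was at least 45.3-fold lower. The levels are low throughout, at 0.0722, 0.0655 and 0.317 FPKM in Control, 0.190, 0.217 and 0.196 in LPS, and 0.234, 0.288 and 0 in CsA. The library CsA 3 is thus also at 0, and the locus was too low to be tested with limma.

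Rabbit_newGene_835 (chr12:147535696-147542956, minus strand) went the other way. Its deposited counts in LPS were 3, 10 and 0, those in LPS+CsA 58, 37 and 171, and the authors' deposited table gives a log2 fold change of 4.33. Its Control values of 0.476, 0.0969 and 0.866 FPKM overlap with the 0.696, 0.446 and 2.03 FPKM of LPS+CsA. Rabbit_newGene_5598 (GL018740:1531830-1540000, minus strand) matches a retroviral envelope glycoprotein. It has the highest fold change of a locus in that authors' deposited table, 5.36 on the log2 scale, and 2081 of its counts lie in LPS+CsA 2 alone. Its counts in LPS were 0, 3 and 51, and the other LPS+CsA libraries had 159 and 10, so 1 animal sets its mean.

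The locus Rabbit_newGene_4682 (AAGW02081404:10735-11964, 2 exons) matches cytochrome c oxidase subunit 1, which is encoded in mitochondrial DNA. The authors' deposited tables give it as lower in LPS (log2 fold change -2.91) and higher in LPS+CsA than in LPS (2.14). It read 71.7, 56.5 and 6.83 FPKM in Control, 3.71, 8.30 and 8.07 in LPS, 8.15, 8.33 and 6.61 in CsA, and 73.8, 7.76 and 7.49 in LPS+CsA. The values form 2 levels, with 3 animals at 56.5 to 73.8 FPKM and 9 at 3.71 to 8.33. Control 3 lies with the low ones, so Control and LPS overlap. The mitochondrial gene may share reads with it, so the value is uncertain as to copy.

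A chemokine-like locus, Rabbit_newGene_2547 (chr19:23731527-23733815, plus strand, 3 exons), matches CCL7 and eotaxin, attractants of monocytes and eosinophils. It read 1.38, 1.88 and 18.2 FPKM in Control, 2.16, 1.90 and 3.24 in LPS, 2.79, 1.04 and 4.46 in CsA, and 4.12, 3.23 and 17.2 in LPS+CsA. Control 3 and LPS+CsA 3 stand far above the other 10. The sum of the 3 neutrophil markers was 276 and 527 FPKM in these libraries, and 399 in CsA 3, where the locus read 4.46 FPKM. The part of cell composition in its values was not tested. Its log2 difference for LPS+CsA against LPS was 1.11 ± 0.77 (SE; limma adjusted p = 0.735).

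Some loci differed between animals more than between groups. Of 653 loci that reached 5 FPKM in some library, 38 (5.82%) were at 0 in another, as against 84 of 9710 Ensembl genes (0.865%). Loci and genes were not matched for level or length here. These 38 loci were short, with a median of 442 exon bases, where the other 615 had 1288. Of the 38, 26 had 2 exons (68.4%), and of the 615, 200 (32.5%). A value listed at 0 can be a failed estimate as well as absence of reads.

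The 8 such loci with the highest values were Rabbit_newGene_6971, Rabbit_newGene_3154, Rabbit_newGene_55, Rabbit_newGene_4369, Rabbit_newGene_3022, Rabbit_newGene_1503, Rabbit_newGene_4878 and Rabbit_newGene_4335. Rabbit_newGene_6971 (GL019011:270606-274873, minus strand) is the shortest of all 1780 loci, with 178 exon bases. It lay at 188 to 364 FPKM in LPS 2, LPS 3, CsA 3, LPS+CsA 2 and LPS+CsA 3, at 7.28 in CsA 2 and at 0 in the other 6. Rabbit_newGene_55 (chr1:19154936-19158789, 3 exons) read 54.9 FPKM in Control 2, 40.3, 35.0 and 22.8 in LPS, and 71.0 in LPS+CsA 2. It was at 0 in LPS+CsA 1 and at most 1.80 FPKM in the other 6.

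Further loci had the library pattern of Rabbit_newGene_6971. The 9 with the highest Pearson correlation to it over the 12 libraries, among 1437 other loci that reached 1 FPKM in some library, were looked up after its values had been seen, and had r from 0.807 to 0.905. Of these 9, 4 lay on scaffold GL019010, which holds 8 loci, and 3 on GL018862, which holds 6. Among the 4, Rabbit_newGene_6944 and Rabbit_newGene_6948 share exon bases on opposite strands, so their reads cannot be told apart. They share their libraries, so r is a description only.

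Rabbit_newGene_6951 (GL019010:213143-216531, minus strand, 2 exons) was one of them. It read 0.222, 0.124 and 0.0646 FPKM in Control, 0.688, 3.97 and 3.55 in LPS, 0.0692, 0 and 4.41 in CsA, and 0, 1.60 and 1.87 in LPS+CsA. The libraries LPS 2, LPS 3 and CsA 3 are the highest, while CsA 1 lies within the Control range and CsA 2 under it. The authors' deposited table gives it the smallest p of a locus in LPS against Control, 1.00e-07, with a log2 fold change of 4.34. Its log2 difference here was 1.57 ± 0.66 (SE; limma adjusted p = 0.750).

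Its neighbour Rabbit_newGene_6949 (GL019010:112060-118523, minus strand, 3 exons) matches caytaxin, a protein of neurons. It read 0, 0.368 and 0 FPKM in Control, 0.0862, 1.25 and 1.79 in LPS, 0, 0.0117 and 0.740 in CsA, and 0.209, 1.02 and 0.432 in LPS+CsA. Control 2 and LPS 1 are enough for Control and LPS to overlap. Rabbit_newGene_4626 (AAGW02079214:40782-92281, plus strand, 5 exons) read 4.25, 3.66, 3.00, 1.86 and 2.58 FPKM in LPS 2, LPS 3, CsA 3, LPS+CsA 2 and LPS+CsA 3. It read 0.995 FPKM in Control 2, 0.842 in LPS+CsA 1, 0.297 in LPS 1 and 0 in the other 4. In these libraries FOXJ1, a factor of multiciliated cells, read 11.5, 2.87, 1.21, 1.70 and 1.99 FPKM in the first 5 and 3.09 in LPS+CsA 1, and its part was not tested.

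Scaffold GL019111 carries 8 loci that were high in 2 animals. Rabbit_newGene_7239 (GL019111:92575-165060, plus strand, 3 exons) read 5.42, 31.2 and 49.3 FPKM in Control, 494, 104 and 75.0 in LPS, 47.3, 64.9 and 59.0 in CsA, and 309, 68.2 and 114 in LPS+CsA. LPS lies above Control, and LPS 1 and LPS+CsA 1 are the highest of the 12 libraries. Its log2 difference for LPS against Control was 2.86 ± 0.85 (SE; limma adjusted p = 0.750), and 1.97 without Control 1.

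Rabbit_newGene_7244 (GL019111:92518-165235, minus strand) shares exon bases with it and read 1136 FPKM in LPS+CsA 1 and 1087 in LPS 1, while the other 10 libraries read 85.04 to 354. LPS and Control overlap there. Its log2 difference was 0.48 ± 0.86 (SE) and turned to -0.45 without LPS 1, although the authors' deposited table lists it as higher (log2 fold change 1.12). Rabbit_newGene_7500, on another scaffold (GL019301:60257-62074), carries the same protein match as Rabbit_newGene_7239. It read 321 FPKM in LPS 1 and 291 in LPS+CsA 1, and 44.1 to 121 in the other 10. The difference between LPS and Control was 0.75 on the log2 scale, and 0.01 without LPS 1.

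Another pair of overlapping loci formed a low and a high level over the animals. Rabbit_newGene_1767 (chr15:46342038-46342567, minus strand) and Rabbit_newGene_1748 (chr15:46342163-46342549, plus strand) share exon bases, and the latter matches prothymosin alpha, an abundant nuclear protein of dividing cells. Rabbit_newGene_1767 read 2095, 920 and 1884 FPKM in Control, 179, 1205 and 1061 in LPS, 297, 2761 and 311 in CsA, and 905, 1964 and 186 in LPS+CsA. LPS 1, CsA 1, CsA 3 and LPS+CsA 3 form a low level, at 179 to 311 FPKM, and the other 8 a high one, at 905 to 2761. No Control animal is in the low set, and Control and LPS overlap. Rabbit_newGene_1748 read 1250, 804.5 and 1287 FPKM in Control, 143.5, 707 and 617 in LPS, 175, 1680 and 154 in CsA, and 548, 1187 and 168 in LPS+CsA. It is lowest in the same 4 libraries, and Control and LPS do not overlap. The authors' deposited table lists Rabbit_newGene_1748 as lower in LPS (log2 fold change -1.27), and its log2 difference here was -1.45 ± 0.97 (SE; limma adjusted p = 0.831).

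**Figure D5:**
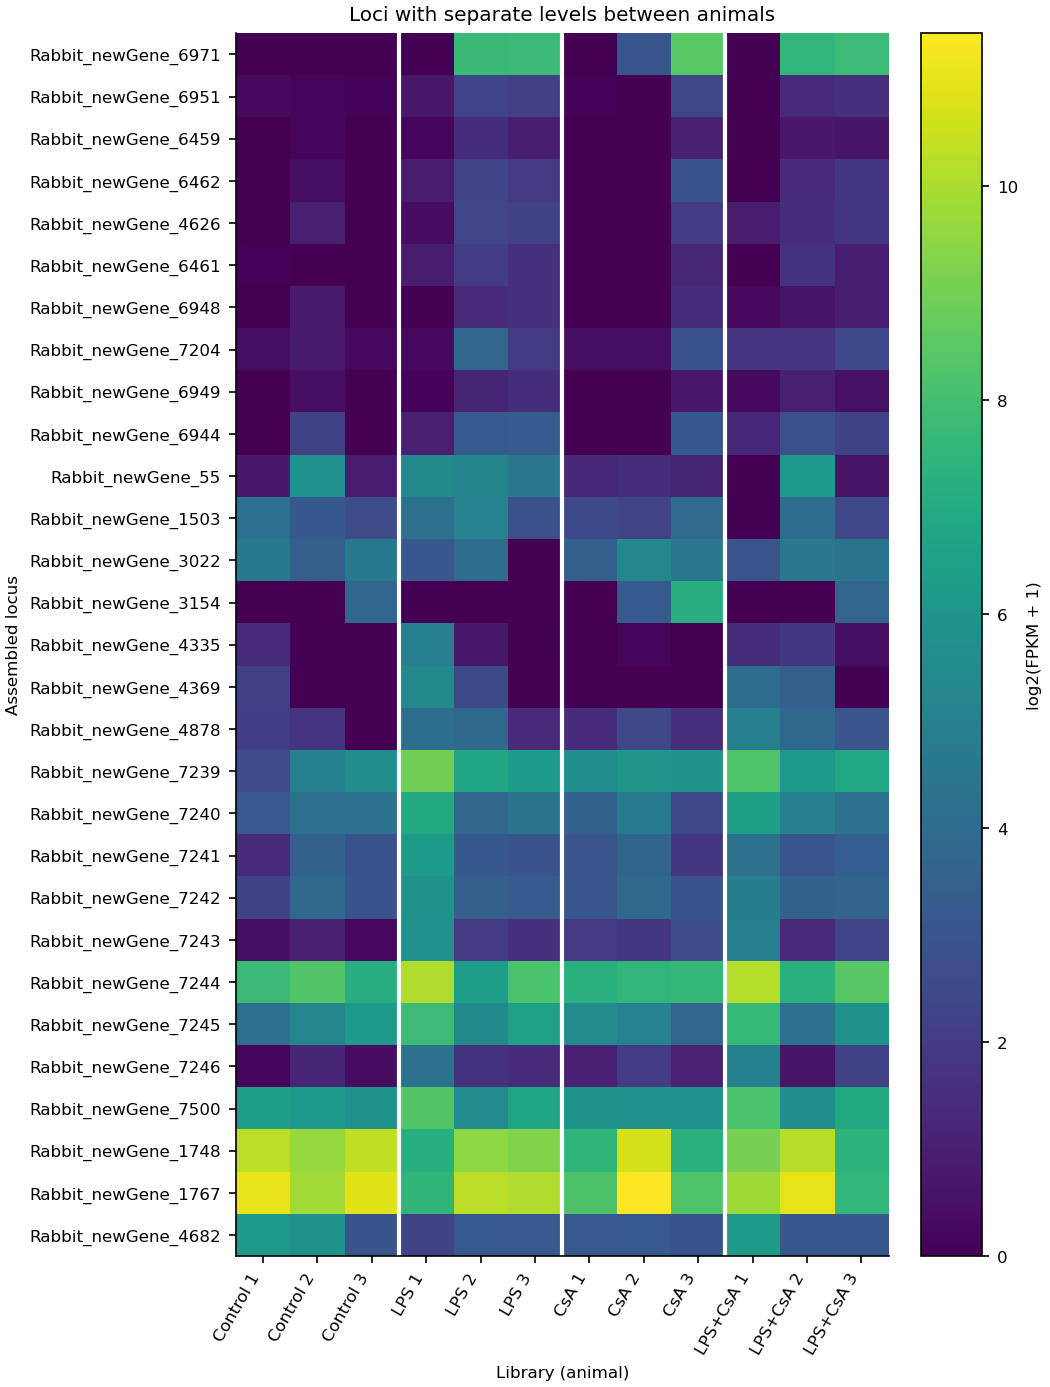
Colour gives log2(FPKM + 1) of each locus (y axis) in each library (x axis), with white lines between the 4 groups. The top 10, from Rabbit_newGene_6971 to Rabbit_newGene_6944, are mostly highest in LPS 2, LPS 3 and CsA 3; those from Rabbit_newGene_7239 to Rabbit_newGene_7246 and Rabbit_newGene_7500 are highest in LPS 1 and LPS+CsA 1; Rabbit_newGene_1748 and Rabbit_newGene_1767 are low in LPS 1, CsA 1, CsA 3 and LPS+CsA 3.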

How the data were processed

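Per the submitters' processing notes, TopHat2, Cufflinks and Cuffnorm were used; the sources used here give no version and no genome build. The authors deposited FPKM values per library and, in tables of listed genes, read counts of 9 libraries, log2 fold changes and unadjusted p-values. A column header of 1 deposited table names edgeR beside the log2 fold change. Exons are the features of the deposited assembly table, whose source column names Cufflinks. Columns of per-sample values left unused numbered 0.

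FPKM values were analysed as log2(FPKM + 1). Features that reached 1 FPKM in 3 or more of the 12 libraries were tested with limma 3.58.1 in R 4.3.3, with a mean per group over all libraries, an intensity trend, two-sided tests and Benjamini-Hochberg adjustment at 5% over 12794 features. The 5 comparisons were LPS+CsA against LPS, LPS against Control, LPS+CsA against CsA, CsA against Control, and their interaction. The fit was checked on simulated data. Exact permutation tests used scipy 1.17.1; other tools were Python 3.11.15, numpy 2.4.6, pandas 2.3.3 and matplotlib 3.10.9. Replicate numbers were left out of the model, as no label pairs the animals by them.

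The loci and lists were chosen with earlier results of these data known. A rule took the 8 smallest p per direction in LPS against Control and LPS+CsA against LPS, and 3 in the others. It took the 3 loci with most exons, exon bases and span. It also took the 8 of highest mean and the 8 highest with a 0 in some library. Last came the 5 highest and lowest in each of the authors' tables. Of these last, Rabbit_newGene_1951, Rabbit_newGene_2384, Rabbit_newGene_3152, Rabbit_newGene_6343, Rabbit_newGene_6390, Rabbit_newGene_6412 and Rabbit_newGene_6858 are not described. Loci named outside the rule were chosen after their values were seen, among them Rabbit_newGene_2547, Rabbit_newGene_7244, Rabbit_newGene_7500 and Rabbit_newGene_4626. The comparison of loci with 1 exon was void, as none exist, and loci with 3 or more exons were set against those with 2 in its place. Locus sequences are not analysed here.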

Additional observations from a re-analysis of the deposited data

How the results depend on the processing

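With limma, 0 loci passed in the 5 comparisons, under the alternatives run as well: no filter, a pseudocount of 0.1, a minimum mean of 5 FPKM, rescaling, no variance trend, the replicate block and each library left out; the compared groups alone, run for 4 comparisons and not for the interaction, also gave 0. Loci with an unadjusted p under 0.05 are listed for LPS+CsA against LPS, LPS against Control, LPS+CsA against CsA, CsA against Control, and their interaction. Without the filter, where 1780 loci are tested, they numbered 128, 143, 118, 96 and 97. That is 7.19%, 8.03%, 6.63%, 5.39% and 5.45% of the loci, against 7.58%, 6.485%, 6.52%, 4.66% and 3.35% of all features. With a minimum mean of 5 FPKM, where 491 are tested, they numbered 38, 42, 42, 21 and 13. That is 7.74%, 8.55%, 8.55%, 4.28% and 2.65% of the loci, against 8.61%, 6.66%, 7.48%, 4.61% and 2.475% of all features. Leaving out each library gave 59 to 92, 73 to 95, 47 to 106, 38 to 66 and 36 to 65 loci. These are 5.13% to 7.99%, 6.34% to 8.25%, 4.08% to 9.21%, 3.30% to 5.73% and 3.13% to 5.65% of the loci. Over all features the shares were 5.17% to 9.18%, 3.38% to 8.10%, 4.17% to 8.57%, 2.92% to 6.74% and 2.45% to 4.78%. The 106 came without LPS+CsA 3, at 9.21% of the loci and 8.57% of all features.

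The replicate block gave 90, 92, 93, 61 and 60 loci, in the same order. That is 7.82%, 7.99%, 8.08%, 5.30% and 5.21% of the loci, against 9.30%, 7.77%, 8.92%, 6.26% and 3.65% of all features. Same-numbered animals had correlations of deviations from -0.085 to 0.42, over 0.1 in 5 of 12 pairs and above 0 in 10. A library correlated best with its own number in 17 of 24 comparisons with another group, a hint from the data. As no label pairs the animals, the numbers were not taken as pairing. What same-numbered animals share was not tested.

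The share of summed FPKM held by the loci, LPS minus Control, ranged from -0.037 to 0.15 percentage points over libraries left out, the lowest without Control 2. LPS+CsA minus LPS ranged from -0.15 to 0.28 (lowest without LPS+CsA 1), CsA minus Control from -0.29 to -0.10 and LPS+CsA minus CsA from 0.10 to 0.53. The share of loci at a threshold exceeded that of Ensembl genes by 3.07 percentage points at 0.1 FPKM and fell short at 1 and 5 FPKM. Over libraries left out, the log2 difference of Rabbit_newGene_4335 ranged from -0.055 to 2.37 in LPS against Control and from -1.55 to 0.87 in LPS+CsA against LPS, and that of Rabbit_newGene_7244 from -0.45 to 1.38 in LPS against Control, the sign turning without LPS 1 each time; the cause was not tested. The use of 2 exons as the reference class and overlapping loci counted once were chosen after seeing the data. A mean of at least 1 FPKM was reached by 55.2% of the loci. The depth of the libraries is not given, and what it limits was not tested.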

Other observations

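Scaffolds GL018706 and GL018708 hold the most assembled loci, 11 and 10. The lowest non-zero FPKM over all 17301 identifiers was 3.86e-250 in Control 1, and similarly small in the other libraries. Among the loci, Rabbit_newGene_2173 was listed at 9.13e-26 FPKM in Control 1. A count of loci above 0 in all 12 libraries (1435) thus includes very small estimates, while 646 loci reached 1 FPKM in all 12 and 342 in none.

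Rabbit_newGene_3154 (chr3:32499400-32501462, minus strand, 203 exon bases) read 148 FPKM in CsA 3, 8.70 in CsA 2, 12.2 in Control 3 and 12.2 in LPS+CsA 3, and was listed at 0 in the other 8 libraries. Rabbit_newGene_4369 and Rabbit_newGene_4335 near the start of chromosome 9 were both highest in LPS 1, at 41.0 and 29.6 FPKM. Rabbit_newGene_4369 was also at 15.4 and 10.1 FPKM in LPS+CsA 1 and LPS+CsA 2, and at 0 in 7 libraries. Rabbit_newGene_7243 and Rabbit_newGene_7246, chosen after their values were seen, had the pattern of their neighbours on GL019111, with 54.8 and 18.0 FPKM in LPS 1 and 29.4 and 31.4 in LPS+CsA 1.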
